A study of Mus musculus with 7 samples.

Results

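The 77 genes described here carry the symbols of mitochondrial ribosomal proteins. They were taken as every gene of the array whose symbol starts with Mrpl or Mrps followed by a number, among 19938 genes that had a row with a single symbol. Of these, 48 carry a large subunit symbol (Mrpl) and 29 a small subunit symbol (Mrps), and 85 rows of the array stood for them, with 2 rows each for 8 genes. For those 8 genes the row with the higher mean value was used. All 77 passed the filter on low values, which left 12102 genes, and all 77 reached it on every array. One further gene, Mrpl53, shared its only row with another symbol and was not counted as a member. Subunits with other symbols are also outside the set, and Mrps36, a member, is now known as part of another complex.

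The arrays profile the left plantaris, a fast calf muscle, from C57BL/6J males aged 5 months whose hind limbs had first been unloaded by suspension for 2 weeks. In order of time, the groups are d0, collected when suspension ended and labelled as the control, and d1, d3, d5, d7, d10 and d14, collected after that many days of renewed loading. Each group was measured once, on an array that received a pool of RNA from 6 animals. All groups, d0 included, had been suspended, so no value here is set against muscle that was never unloaded. With a single array per day, no replicate error can be attached to a difference between days and no p-value is given for one; precision is limited by how few arrays there are. In a bulk sample, fewer cells of a type and less RNA per cell cannot be told apart.

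Mitochondria carry a small genome of their own that encodes core proteins of the respiratory chain and the ATP synthase, and a dedicated ribosome inside the organelle translates them. Its ribosomal RNAs come from the mitochondrial genome, whereas every protein subunit is encoded in the nucleus, made in the cytosol and imported. Many subunits have a counterpart in the bacterial ribosome and others were added in the course of mitochondrial evolution. In muscle, which relies on oxidative phosphorylation for sustained work, defects in several of these subunits cause cardiomyopathy or myopathy in humans.

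Because all protein subunits are nuclear genes, their promoters are where transcription of the set begins. RefSeq promoter windows (GRCm38.p6, 250 bases before to 50 bases after the annotated start) were matched by gene identifier for 68 of the 77 genes. Each window was searched on both strands for CCGGAA (the core bound by ETS factors such as GABP), TGCGCA (the core bound by NRF1) and GATGGC (the core bound by YY1). These factors are known regulators of nuclear genes for mitochondrial proteins, and none of the 3 motifs contains another. Windows are printed for the 3 genes that, in the rows used, lay more than 25% above d0 on all 6 later days (Mrps6, Mrpl45, Mrps22). The window of Mrpl3 is printed because this gene had the smallest adjusted p of the set in the trend over 7 arrays. The pair Mrpl46 and Mrps11 is printed because the annotated starts of this large and this small subunit gene lie 42 bases apart on opposite strands, so that their windows overlap. Capitals mark the 3 motifs, and positions count from 0 at the annotated start.
Mrps6, chr16:92058086-92058385, plus strand, has the NRF1 core at -62. Mrpl45, chr11:97315466-97315765, plus strand, has the NRF1 core at -121 and -39. Mrps22, chr9:98601630-98601929, minus strand, has the ETS core at -11 and, on the opposite strand, at 8. Mrpl3, chr9:105053018-105053317, plus strand, has the ETS core at -19. Mrps11, chr7:78782881-78783180, plus strand, has the YY1 core at -107 on the opposite strand. Mrpl46, chr7:78783040-78783339, minus strand, has none of the 3.
Mrps6: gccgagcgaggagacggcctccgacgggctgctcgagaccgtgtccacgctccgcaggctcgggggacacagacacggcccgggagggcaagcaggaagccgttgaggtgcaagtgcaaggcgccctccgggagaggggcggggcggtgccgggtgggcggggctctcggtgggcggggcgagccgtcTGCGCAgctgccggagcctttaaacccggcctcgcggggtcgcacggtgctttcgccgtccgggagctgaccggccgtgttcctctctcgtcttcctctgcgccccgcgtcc
Mrpl45: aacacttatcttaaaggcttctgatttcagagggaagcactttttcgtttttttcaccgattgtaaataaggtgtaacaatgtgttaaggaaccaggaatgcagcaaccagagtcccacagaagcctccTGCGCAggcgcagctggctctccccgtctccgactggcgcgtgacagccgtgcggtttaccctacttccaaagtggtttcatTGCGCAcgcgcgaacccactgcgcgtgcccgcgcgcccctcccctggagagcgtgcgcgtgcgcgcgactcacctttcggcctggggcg
Mrps22: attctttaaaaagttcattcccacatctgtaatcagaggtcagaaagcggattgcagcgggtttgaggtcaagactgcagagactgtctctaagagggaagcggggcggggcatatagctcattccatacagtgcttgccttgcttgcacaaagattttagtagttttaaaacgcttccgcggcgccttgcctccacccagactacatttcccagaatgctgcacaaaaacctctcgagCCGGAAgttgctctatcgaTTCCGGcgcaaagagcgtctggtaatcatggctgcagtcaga
Mrpl3: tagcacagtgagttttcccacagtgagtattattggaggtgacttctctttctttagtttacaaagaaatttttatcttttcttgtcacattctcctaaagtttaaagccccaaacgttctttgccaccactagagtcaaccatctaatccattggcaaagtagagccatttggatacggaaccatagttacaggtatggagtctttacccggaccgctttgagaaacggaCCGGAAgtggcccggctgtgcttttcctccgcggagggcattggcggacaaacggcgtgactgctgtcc
Mrps11: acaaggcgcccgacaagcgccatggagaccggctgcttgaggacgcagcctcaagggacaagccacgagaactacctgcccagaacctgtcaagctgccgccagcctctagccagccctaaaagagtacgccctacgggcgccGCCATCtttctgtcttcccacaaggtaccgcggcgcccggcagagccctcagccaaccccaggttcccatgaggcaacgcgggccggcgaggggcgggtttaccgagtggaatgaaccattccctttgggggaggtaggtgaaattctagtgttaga
Mrpl46: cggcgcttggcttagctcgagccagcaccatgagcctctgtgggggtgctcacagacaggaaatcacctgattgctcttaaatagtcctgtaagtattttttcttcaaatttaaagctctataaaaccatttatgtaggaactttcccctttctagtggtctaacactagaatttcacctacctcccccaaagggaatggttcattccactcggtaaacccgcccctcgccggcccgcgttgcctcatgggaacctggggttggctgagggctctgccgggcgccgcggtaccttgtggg

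A gene was counted for a motif when at least 1 of its windows held it. The ETS core was present for 39 of the 68 genes (57.4%). Its share was 16.7% of the 27025 genes with a window and 29.0% of the 9625 past the filter. The NRF1 core was present for 21 genes (30.9%), against 8.79% of all genes with a window and 15.2% of those past the filter. The YY1 core was in 16 (23.5%), against 15.9% and 17.0%. At least 1 of the 3 was in 54 of 68 (79.4%), against 34.7% and 48.8%. Large and small subunit genes held the ETS core at nearly the same share, 24 of 42 (57.1%) and 15 of 26 (57.7%). By motif, on d5 the median log2 ratio to d0 was 0.19 with the ETS core and 0.16 without it, 0.19 with the NRF1 core and 0.16 without it, and 0.13 with the YY1 core and 0.22 without it. On d10 the order for ETS and NRF1 was the other way. The median was then 0.16 with the ETS core and 0.19 without it, and 0.13 and 0.18 for NRF1 and likewise for YY1. A match of letters is a description of the window, and no difference between these shares or medians was tested.

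Before the values, the state of the arrays matters because every ratio uses d0. The d0 array had the lowest mean Spearman correlation with the others over all rows, 0.972, against 0.984 to 0.989 for the 6 later arrays, and over the 12102 genes the median log2 ratio to d0 was positive on every later day (0.10, 0.066, 0.048, 0.075, 0.096 and 0.076 from d1 to d14). The median intensity per array lay between 128.1 and 131.8. All 8 markers of muscle fibres were high on every array, with a summed intensity of 116122 to 121813 on the later days and 124378 on d0. All 8 neutrophil markers were above d0 on d10, and their summed intensity was 8309.5 on d10, against 1543.3 to 3843 on the other later days and 1240.8 on d0. The 8 macrophage markers on the array summed to 3982.1 on d1 and 2192.1 to 3651.8 on the other later days, against 2338.2 on d0, and all 7 of them past the filter were above d0 on d1, d3, d5 and d10. The 6 fibroblast markers summed to 13040.4 to 14836.7 on the later days and 14120.3 on d0, with 4 of 6 above d0 on each day. Their median log2 ratio to d0 was 0.12, 0.62, 0.74, 0.49, 0.67 and 0.47 from d1 to d14, highest on d5 and next on d10. The part of these cells in the results below was not tested.

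The set as a whole showed a modest course with its highest point on d5. The median log2 ratio of the 77 genes to d0 was 0.021, 0.090, 0.18, 0.11, 0.16 and 0.15 from d1 to d14, so the median was at most 1.13-fold above d0, and its sign on d1 turned to -0.040 after quantile normalization and -0.12 with equal array medians. On d1 this was 0.081 below the median of all genes, and on d5 it was 0.13 above it. On d5, 66 of 77 genes were higher than on d0, against 61.1% of all genes, and on d10 69 of 77 were higher, against 72.2% of all genes. On d1, 47 were higher, against 70.9% of all genes. On d3, d7 and d14 the counts were 55, 61 and 68, against 65.5%, 66% and 71.3% of all genes.

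**Figure D1:**
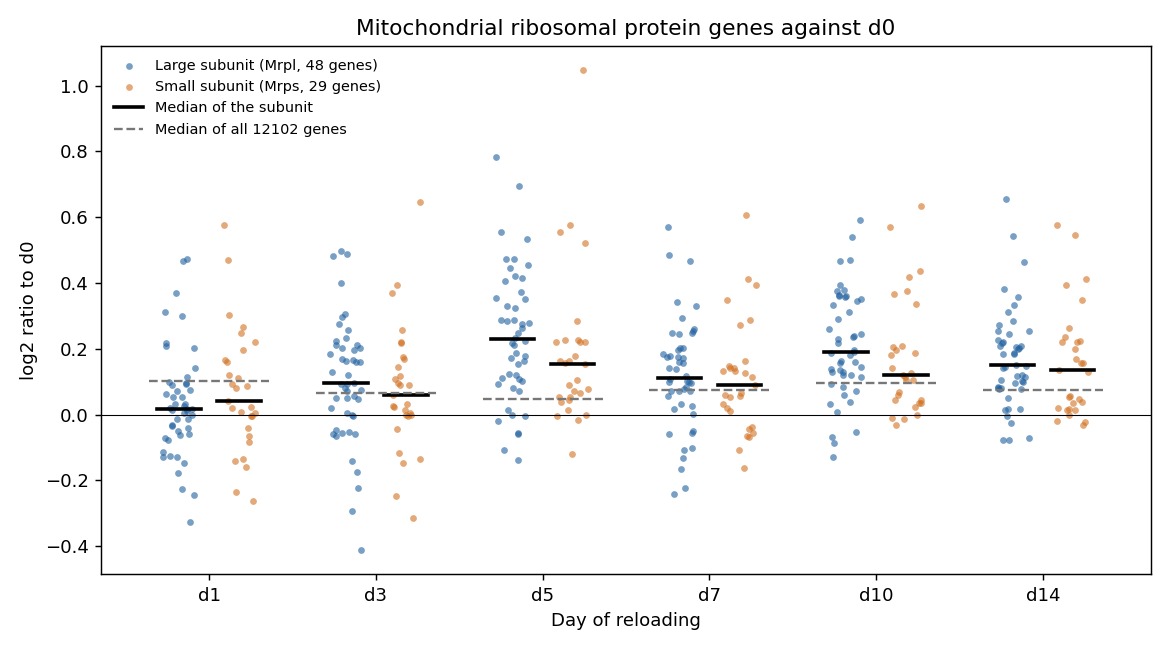
Log2 ratio to d0 (y axis) of the 48 large subunit genes (blue, left) and the 29 small subunit genes (orange, right) on each later day (x axis). Points are genes, black bars the medians of each subunit and dashed lines the median of all 12102 genes; the subunit medians are highest on d5, 0.23 for large and 0.15 for small.

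Few genes moved far. More than 25% above d0 (a log2 ratio past 0.32) lay 5, 7, 20, 9, 21 and 11 genes from d1 to d14, against 15.8%, 9.95%, 8.59%, 12.4%, 13.3% and 7.25% of all genes on the same days. As shares of the 77 these are 6.49%, 9.09%, 26.0%, 11.7%, 27.3% and 14.3%, below the share of all genes on d1, d3 and d7 and above it on d5, d10 and d14. The d10 count was 11 after quantile normalization, against 10% of all genes. With equal array medians it was 4, against 4.41% of all genes, and the d14 count was 5, against 2.97%. More than 20% below d0 (past -0.32) lay 1 gene on d1 and on d3, in both cases Mrpl54, against 3.07% and 2.8% of all genes, and 0 genes from d5 to d14, against 3.35%, 2.86%, 2.39% and 1.8%. With equal array medians 6 genes lay below on d1 and 4 on d3, against 7.44% and 4.64% of all genes. On at least 1 day, 31 of 77 lay more than 25% above d0, against 29.6% of all genes, and 1 more than 20% below it, against 7.34%. By the rows used, 5 genes (Mrps36, Mrpl42, Mrpl45, Mrps6 and Mrpl22) were past 1.5-fold on at least 1 day, a share of 6.49%, against 6.24% of all genes. By day, 0, 1, 3, 1, 2 and 1 genes were past 1.5-fold above d0, against 3.45%, 1.65%, 1.36%, 1.74%, 2.28% and 0.678% of all genes, and 0 were past 1.5-fold below it on d1 and d3, against 1.02% and 0.843%. Past 2-fold was only Mrps36, on d5, against 0.182% of all genes on that day and 1.15% on at least 1 day. Mrpl42, Mrpl46, Mrpl32, Mrpl35 and Mrps11 are named here and below after their values were seen. The median range of a gene over the 7 arrays was 0.33 on the log2 scale for the set and 0.31 for all genes, and within the set it ran between 0.055 for Mrpl35 and 1.11 for Mrps36.

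The d5 value stood above those around it. On d5, 53 of 77 genes were higher than on both d3 and d7 (68.8%), against 21.4% of all genes, and d5 was the highest of the 7 arrays for 31 genes (40.3%), against 6.14% of all genes. The median distance of d5 from the mean of d3 and d7 was 0.091 for the set and -0.022 for all genes. Against d3, 66 of 77 were higher on d5, against 35.9% of all genes. On d7, 57 were lower than on d5 and 17 higher, where 56.8% of all genes were higher. The next most frequent highest day was d10, with 18 genes, against 21.3% of all genes. The lowest array was d0 for 37 genes, against 39.4% of all genes, and d1 for 22, against 10.6%. No error can be given for a single array, and d5 is 1 pool of animals.

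**Figure D2:**
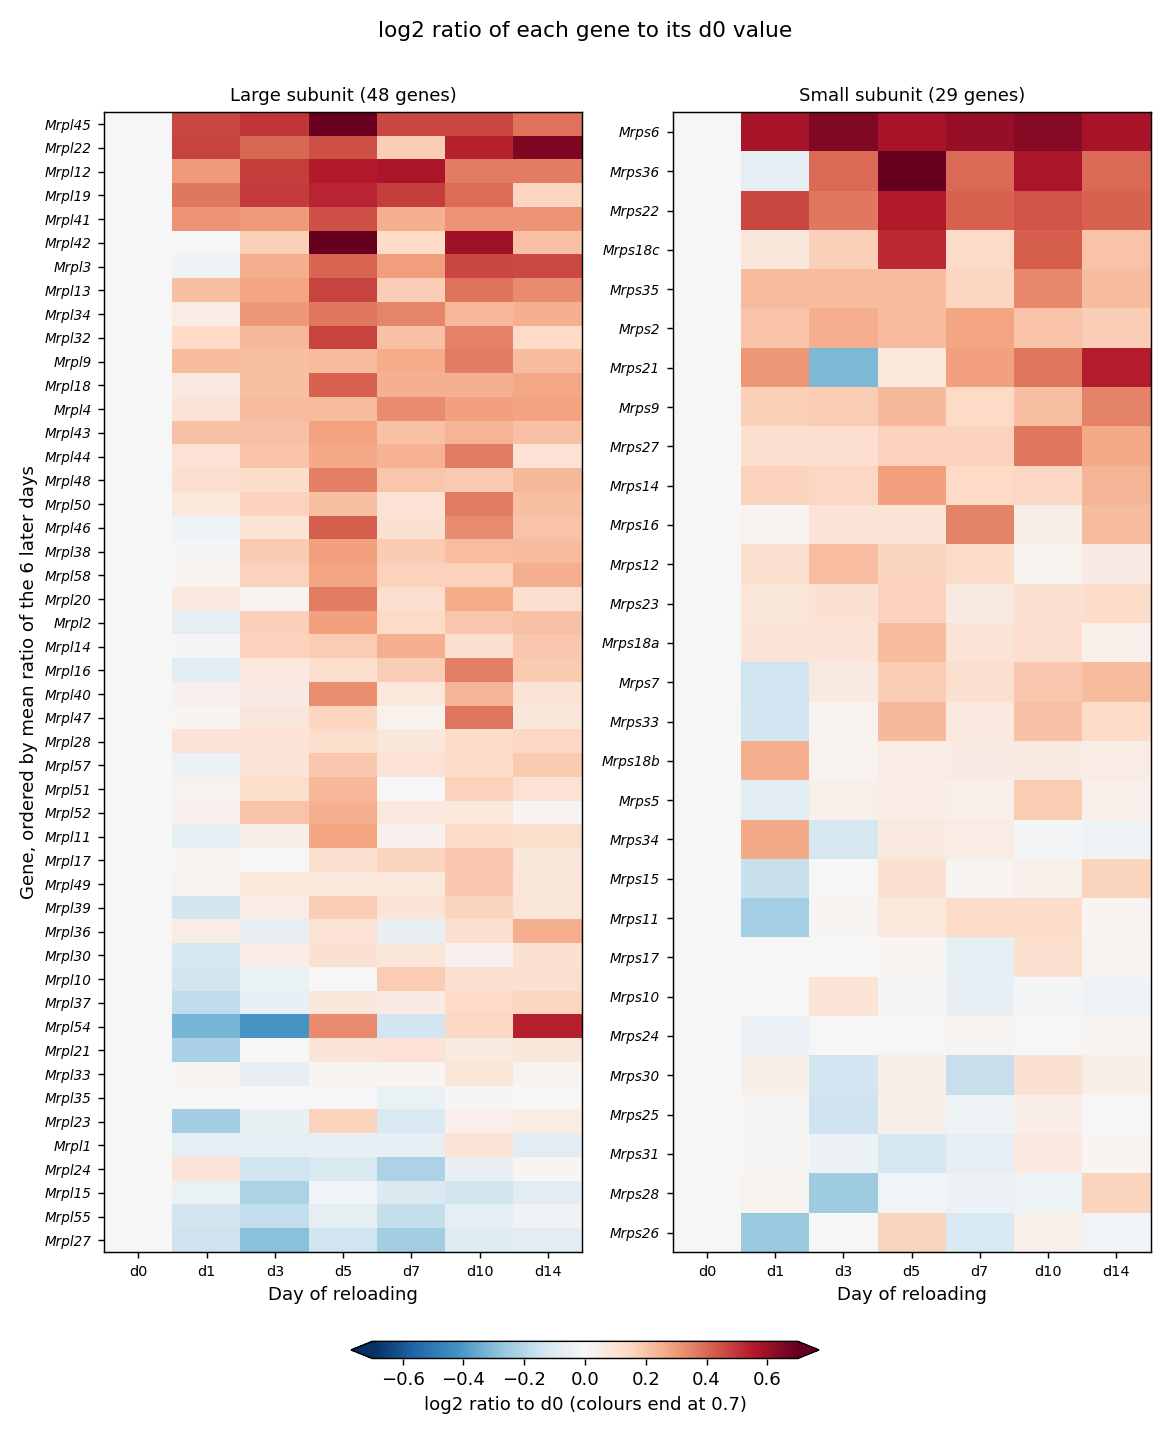
Log2 ratio of each gene to its own d0 value (colour) on the 7 arrays (columns), for the 48 large subunit genes (left) and the 29 small subunit genes (right), ordered by the mean ratio of the 6 later days. Red is higher than d0 and blue lower. The d5 and d10 columns hold the most genes more than 25% above d0, 20 and 21 of 77, against 8.59% and 13.3% of all genes. With equal medians over the 12102 genes these counts were 15 and 4, against 5.45% and 4.41%. In the rows used, Mrpl27, Mrpl55 and Mrpl15 at the foot of the large subunit stay blue throughout.

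With d14 in place of d0, the medians of d5 and d10 lay above 0 and those of d1, d3 and d7 below it. The median log2 ratio to d14 was -0.10, -0.051, 0.022, -0.036 and 0.014 on d1, d3, d5, d7 and d10, against 0.003, 0, -0.014, 0 and 0.012 for all genes. The genes higher than on d14 numbered 16, 16, 47, 23 and 45 of 77 on these days, against 50.8%, 39.2%, 32.4%, 43.9% and 54.4% of all genes. On d1, 55 of 77 genes were lower than on d14, against 40.9% of all genes. More than 20% below d14 were 5, 3, 1 and 1 genes on d1, d3, d5 and d10, against 3.43%, 1.69%, 1.49% and 1.58% of all genes, and 2 genes on d7, against 151 of all 12102 genes. More than 25% above it were 0, 1, 4, 1 and 1 genes from d1 to d10, against 6.87%, 2.25%, 1.51%, 1.99% and 2.58%. The d1 array was the lowest of the 6 reloaded days for 38 of 77 genes (49.4%), against 18.7% of all genes. These counts do not use d0.

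Both subunits had their highest median on d5. The large subunit medians were 0.016, 0.096, 0.23, 0.11, 0.19 and 0.15 from d1 to d14, and those of the small subunit were 0.041, 0.061, 0.15, 0.090, 0.12 and 0.14. The large minus small difference of medians was -0.025, 0.035, 0.075, 0.022, 0.070 and 0.014. More than 25% above d0 on d5 were 16 of 48 large and 4 of 29 small subunit genes, where 8.59% of all genes were, and on d10 14 of 48 and 7 of 29, where 13.3% of all genes were. On d5, 45 of 48 large subunit genes and 21 of 29 small subunit genes were higher than on d3, against 35.9% of all genes. The d5 array was the highest for 23 large subunit genes (47.9%) and 8 small subunit genes (27.6%), against 6.14% of all genes. The difference between the subunits was not tested, since genes are not replicates of a day.

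Symbols do not always match the subunit in which a protein sits. Mrps30 and Mrps18a are parts of the large subunit in structures of the mammalian ribosome, and Mrps36 is now known as a component of the 2-oxoglutarate dehydrogenase complex. Counted that way, 50 large subunit genes had a median of 0.22 on d5 and 26 small subunit genes one of 0.13, a difference of 0.092. On d1 and d14 the difference was -0.033 and 0.00051.

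Within the large subunit, proteins found only in mitochondria were set beside those with a bacterial counterpart. The 18 found only in mitochondria had a median of 0.28 on d5, and the 30 with a bacterial counterpart one of 0.16, a difference that was not tested. All 18 were above d0 on d5, d10 and d14, and 23, 26 and 25 of the 30 were, against 61.1%, 72.2% and 71.3% of all genes. Over both subunits the medians on d5 were 0.22 for the 30 genes classed as found only in mitochondria and 0.14 for the 46 classed with a counterpart. On d7 the order was the other way, 0.093 and 0.13. The 30 include Mrps18a and Mrps18b, although these are homologues of bacterial S18. Of that family only Mrps18c was classed with a counterpart.

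The courses of single genes are given in groups, beginning with those high on every later day. Mrps6, the counterpart of the bacterial small subunit protein S6, had an intensity of 456 on d0 and 680.5, 713.8, 680.5, 694.6, 707.9 and 680.5 from d1 to d14. All later arrays lay close together and above d0, with log2 ratios of 0.58 to 0.65. The annotated gene overlaps Slc5a3, a myo-inositol transporter gene that had log2 ratios of 0.23, 0.20, 0.22, 0.27, 0.79 and 0.35 on its own row. Mrpl45, which lies at the exit of the nascent chain tunnel and contacts the inner membrane, had 365.9 on d0 and 506.1, 516.9, 592, 506.1, 506.1 and 476.7 afterwards. It was highest on d5 (log2 0.69) and lowest of the later days on d14 (0.38). Mrps22, a mitochondria-specific small subunit protein whose human variants cause cardiomyopathy, had 269.1 on d0 and 372.8, 348, 395.1, 358.4, 364.5 and 358.4 afterwards. Its later values spanned log2 ratios of 0.37 to 0.55, and d0 lay below all of them. By the rows used, these were the 3 genes more than 25% above d0 on all 6 days, 3.90% of the set, against 2.7% of all genes. The other row of Mrpl47 was also past this on all 6 days (0.49 to 0.82), and its row used was not (0.016 to 0.37).

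Mrpl12, a stalk protein also known to bind the mitochondrial RNA polymerase, had 789.3 on d0 and 971.7, 1103.5, 1159.2, 1171.3, 1011.5 and 1011.5 afterwards. It was highest on d5 and d7, with log2 ratios of 0.55 and 0.57. Mrpl19 had 526.9 on d0 and 680.5, 738.5, 763, 737, 692 and 585.3 afterwards, so that its ratio was 0.53 on d5 and 0.15 on d14. Mrpl22, a protein of the tunnel wall, had 158.4 on d0, the lowest intensity of any member on that array, and 219.8, 209.1, 215.6, 178.8, 230.2 and 249.4 afterwards. Its log2 ratio was lowest on d7 (0.17) and highest on d14 (0.65). Mrpl41 had log2 ratios of 0.25 to 0.45 on the 6 days in the row used, and its other row had 0.011 on d3 and 0.14 on both d7 and d14. Mrpl44, a protein with an RNase III-like fold whose human variants cause cardiomyopathy, had ratios of 0.10 to 0.36.

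The second group had its clearest value on d5. Mrps36 had 404.6 on d0 and 386.6, 531.9, 836.3, 531.9, 600.7 and 532.1 from d1 to d14. The d5 array stood above all others (log2 1.05), and d10 was next (0.57). Mrpl42, a mitochondria-specific protein, had 760.3 on d0 and 762.7, 854.9, 1309.1, 838.3, 1145 and 877.1 afterwards, with the same 2 days highest (0.78 and 0.59). Mrps18c, one of a family of 3 mammalian homologues of bacterial S18, had 429.6 on d0 and 454.2, 483.1, 616.2, 470.8, 574.7 and 493.1 afterwards, with 0.52 on d5 and 0.42 on d10. Its relatives differed in course: Mrps18b was highest on d1 (0.25) and between 0.026 and 0.061 later, and Mrps18a was highest on d5 (0.22) and between 0.036 and 0.12 on the other days. The d5 value was more than 25% above the mean of d3 and d7 (on the log2 scale) for 4 genes of the set, Mrps36, Mrpl42, Mrpl54 and Mrps18c, against 0.719% of all genes. For 37 genes d10 was higher than d7 and d14 (48.1%), against 43.6% of all genes. Over the set, 24 genes were higher both on d5 than on d3 and d7 and on d10 than on d7 and d14 (31.2%), against 13.5% of all genes.

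The third group holds the genes with the highest slopes from d1 to d14 within their subunit. Mrpl54 had 962.3 on d0 and 768.3, 723.3, 1209.7, 878.6, 1063.6 and 1403.1 afterwards, with d1 and d3 below d0 (log2 -0.32 and -0.41) and d14 highest (0.54). Mrps21, the counterpart of bacterial S21, had 4682.3 on d0 and 5779.4, 3766.5, 4937.3, 5712.5, 6076.4 and 6841 afterwards. It was lowest on d3 (-0.31) and highest on d14 (0.55). Mrpl3, which lies near the peptidyl transferase centre and whose human variants cause cardiomyopathy, had 729.9 on d0 and 714.8, 871.6, 968.2, 894.3, 1010.3 and 1006.5 afterwards. Its d0 and d1 values lay together and below all others, and d10 and d14 were highest (0.47 and 0.46). Mrpl37 had 1862.3 on d0 and 1646.1, 1790.4, 1970.7, 1936.7, 2051.3 and 2063.4 afterwards, lowest on d1 (-0.18). Mrpl16 and Mrps7 were also below d0 on d1 (-0.077 and -0.14) and reached 0.35 on d10 and 0.22 on d14 in turn.

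**Figure D3:**
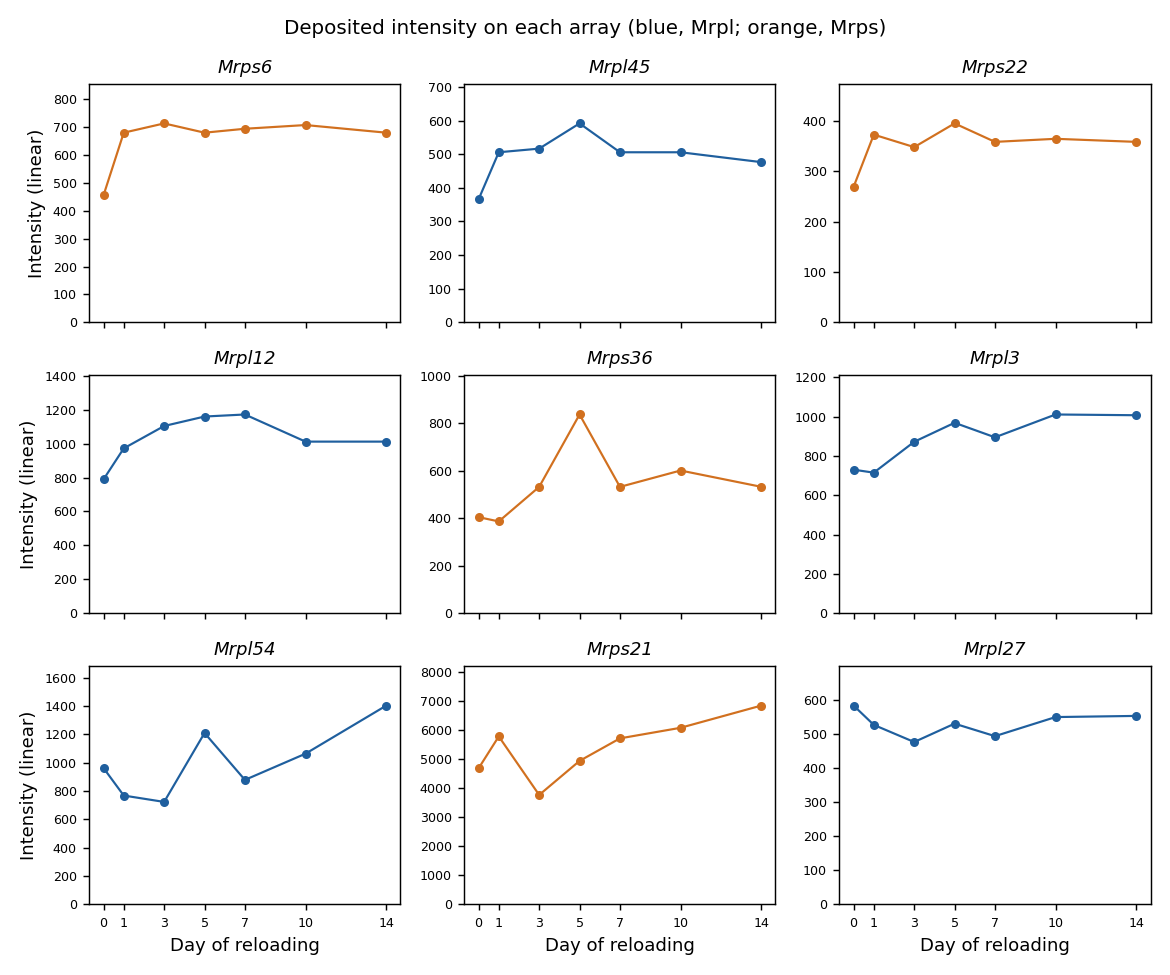
Deposited linear intensity (y axis, from 0) of 9 genes against the day of reloading (x axis), 1 point per array, with Mrps genes in orange and Mrpl genes in blue. Mrps6 steps up after d0 and stays there, Mrps36 peaks on d5, and Mrpl54 and Mrps21 end highest on d14. In the row drawn, Mrpl27 is highest on d0.

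The remaining named members follow, beginning with those below d0 on all 6 days. Mrpl27, whose bacterial counterpart reaches into the peptidyl transferase centre, had 582.7 on d0 and 526.1, 475.9, 529.7, 493.1, 549 and 552.4 afterwards. In the row used it was below d0 on all 6 days (log2 -0.29 to -0.077), as were Mrpl55 (-0.17 to -0.025) and Mrpl15 (-0.22 to -0.018). The other row of Mrpl27 was above d0 on d5 (0.081), d10 (0.33) and d14 (0.020), and below it on d1, d3 and d7. By the rows used, Mrpl27, Mrpl55 and Mrpl15 were the 3 genes of the set below d0 throughout, 3.90%, against 7.68% of all genes. Above d0 throughout were 37 genes (48.1%), against 39% of all genes. Mrpl24, which sits beside the tunnel exit, was below d0 from d3 to d10, down to -0.22 on d7. Among small subunit genes the 4 lowest mean ratios were those of Mrps26 (-0.032), Mrps28 (-0.027), Mrps31 (-0.023) and Mrps25 (-0.015), all close to 0. Of the remaining stalk proteins, Mrpl1 was below d0 on 5 of 6 days (-0.078 to 0.093), Mrpl10 ran between -0.13 and 0.18, and Mrpl11 between -0.060 and 0.28. Mrps12, the counterpart of the decoding centre protein S12, was highest on d3 (0.22). Mrps16, whose human variants cause a respiratory chain defect, was highest on d7 (0.35). Mrps34, needed for the stability of the small subunit, was highest on d1 (0.27) and lowest on d3 (-0.12). Mrps27, a pentatricopeptide repeat protein, was highest on d10 (0.37). Mrps5 stayed between -0.082 and 0.18 in the row used, and Mrpl18 was above d0 on all days (0.063 to 0.41). Mrps30 ran between -0.16 and 0.11, and Mrps33 between -0.13 and 0.23. Mrpl52 was highest on d5 (0.25), and Mrps10 stayed between -0.057 and 0.096.

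The 8 genes with 2 rows give the only repeat of a measurement within an array. The rows of Mrps36 ran together, with log2 ratios on d5 of 1.05 and 1.04, as did those of Mrpl23, with 0.16 and 0.16 on d5 and -0.24 and -0.24 on d1. The rows of Mrps33 differed most on d3, with 0.024 and 0.100. Those of Mrps5 had opposite signs on d3, d5, d7 and d14, with 0.053 in the row used and -0.034 in the other on d5. The rows of Mrpl47 disagreed: the row used had 0.026 on d7 and the other 0.82. Over the 6 days the row used ran between 0.016 and 0.37, and the other between 0.49 and 0.82. The rows of Mrpl27 disagreed on d10, with -0.086 and 0.33, those of Mrpl41 on d3, with 0.30 and 0.011, and those of Mrpl51 on d1, with 0.027 and 0.31. RefSeq names pseudogenes of Mrpl23, Mrpl27, Mrpl48 and Mrps36, and rows of such near-identical copies may share signal, so values of these genes are uncertain.

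**Figure D4:**
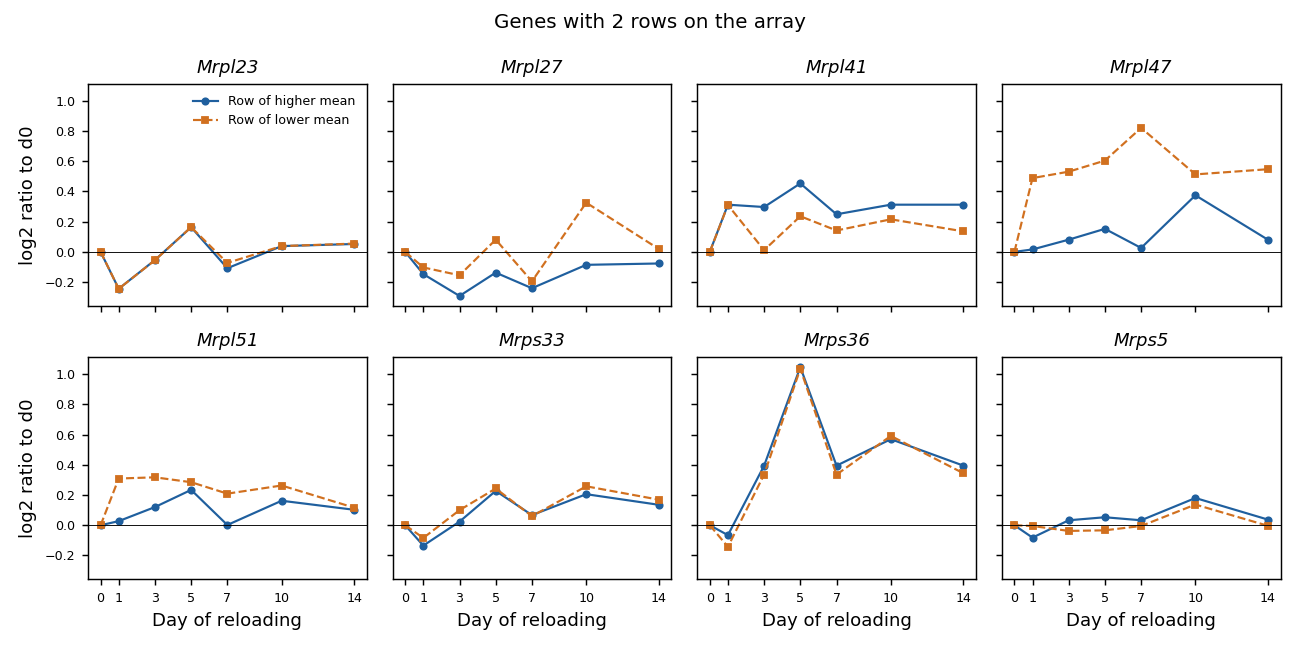
Log2 ratio to d0 (y axis) against day (x axis) for the 8 genes with 2 rows, the row with the higher mean intensity in blue and the other in orange. Both rows of Mrps36, Mrpl23 and Mrps33 run together, and those of Mrpl47 (d7, 0.026 in the row used and 0.82 in the other), Mrpl27 (d10), Mrpl41 (d3) and Mrpl51 (d1) lie apart. The rows of Mrps5 differ in sign on d3, d5, d7 and d14.

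Whether the set changed steadily over time was asked with a straight line on log2(day + 1), fitted with limma over all 12102 genes. Over the 7 arrays, 0 of 77 genes rose or fell at an adjusted p of 0.05, and 0% of all genes did in either direction. The smallest adjusted p of the set was 0.24, for Mrpl3, with a slope of 0.14 ± 0.026 (SE) per unit of log2(day + 1). Before adjustment, at p 0.05, the slope was rising for 19 genes (15 large and 4 small) and falling for 0, against 9.19% and 1.45% of all genes. Of these limma counts, the rising one was 6 (4 large and 2 small) with equal medians over the 12102 genes, against 513 of all genes. It was 9 with the day on a linear scale, against 614, and 12 with the rank of the day, against 835. Over the 6 arrays from d1 to d14, 0 of 77 genes passed the adjusted limma threshold in either direction, against 0.157% and 0.198% of all genes, and the smallest adjusted p was 0.097, for Mrpl37 (slope 0.12 ± 0.022). At an unadjusted p of 0.05, 12 genes rose (8 large and 4 small) and 0 fell, against 6.88% and 6.39% of all genes. Without d1 that count was 3 rising and 3 falling, against 706 and 266 of all genes, and without d5 it was 20 rising, against 851. Slopes lay above 0 for 69 of 77 genes over 7 arrays, against 66.4% of all genes, and for 64 over 6 arrays, against 47.9%. The median slope over 6 arrays was 0.047 for large and 0.019 for small subunit genes, and -0.0022 for all genes.

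Genes that share a start region with a neighbour are common in the set. In RefSeq, 27 of 68 genes (39.7%) had a start on the opposite strand within 1000 bases, against 14.0% of all genes in the promoter table and 20.6% of those past the filter. For the 21 pairs with both genes past the filter, the median log2 ratio on d5 was 0.18 for the mitochondrial ribosomal protein gene and 0.050 for its neighbour, and the ribosomal protein gene was the higher in 15 of 21. In the pair printed above, Mrpl46 had 346.8 on d0 and 338.3, 370.2, 464.7, 373.5, 436.7 and 398.4 afterwards. Mrps11 had 328.8 on d0 and 279.3, 332.1, 345.5, 360.7, 358.8 and 332.1 afterwards. Mrpl46 was highest on d5 (log2 0.42) and Mrps11 on d7 (0.13), so the courses of these neighbours differed on these arrays. Mrpl18 had a log2 ratio of 0.41 on d5 and its neighbour Tcp1, a chaperonin subunit, 0.016. Mrpl32 had 0.47 on d5 and Psma2, a proteasome subunit, 0.078. Mrpl47 and Ndufb5, a complex I subunit, had 0.15 and 0.34 on d5 and 0.37 and 0.27 on d10. This pair count includes Mrpl46 and Mrps11 from both sides.

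The rest of the mitochondrial translation machinery was followed as lists. Of 4 mitoribosome proteins with other symbols, Ptcd3 and Chchd1 were above d0 on all days, with 0.37 each on d5, and Dap3 and Gadd45gip1 were below d0 on all days, down to -0.32 and -0.36 on d3. All 13 translation factors were above d0 on d10 and d14, against 72.2% and 71.3% of all genes. Their medians were 0.11, 0.15, 0.21, 0.16, 0.28 and 0.18 from d1 to d14. The medians of all genes, against which every list here stands, were 0.10, 0.066, 0.048, 0.075, 0.096 and 0.076. Taco1, a translational activator of cytochrome c oxidase subunit I, had 0.51 on d10, and Gfm1, a mitochondrial elongation factor, had 0.42. The 15 tRNA synthetases past the filter had medians of 0.080 to 0.16, with Aars2 at 0.30 to 0.45 and Cars2 at 0.24 to 0.41 over the 6 days. The 21 assembly and rRNA handling genes had medians of 0.021 to 0.16. Among them Tfb1m, which methylates the small subunit rRNA, was highest on d1 (0.52), and Lrpprc, which stabilises mitochondrial mRNAs, was highest on d10 (0.41). Of 13 genes of mitochondrial transcription and its regulators the median was highest on d1 (0.24), as was that of all genes (0.10). On that day Pprc1, a member of the PGC-1 family, had 0.55 and Tfam, the mitochondrial transcription factor, 0.39. None of these genes was tested between days.

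**Figure D5:**
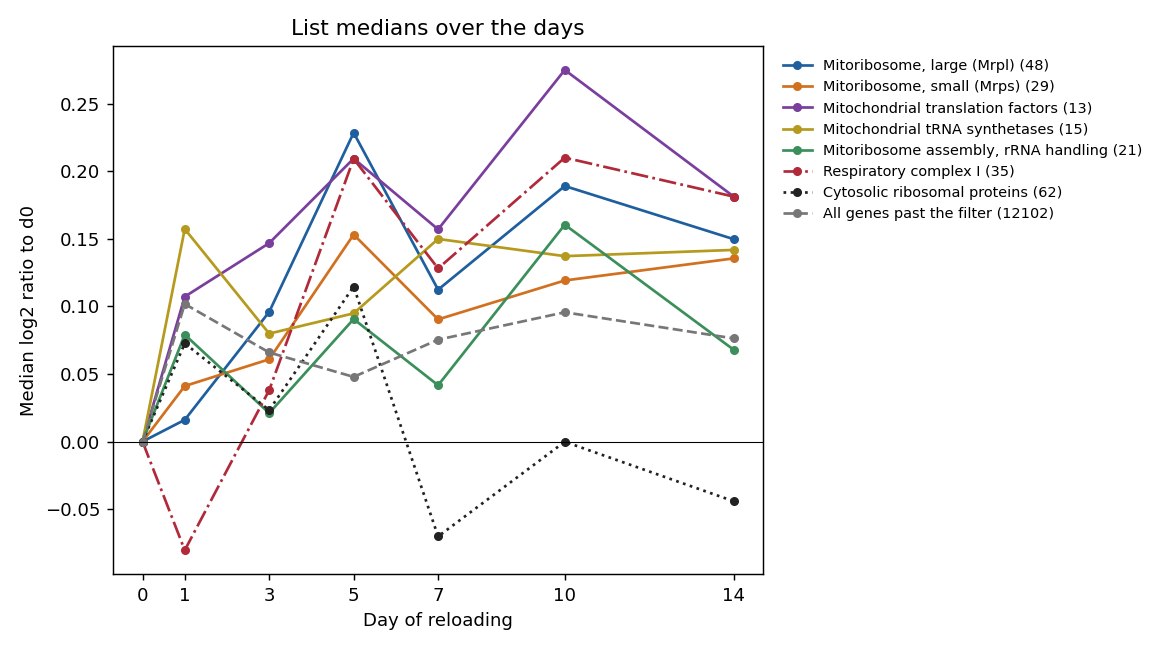
Median log2 ratio to d0 (y axis) of each list against the day of reloading (x axis), with the number of genes in brackets. Large and small subunit genes peak on d5 with cytosolic ribosomal proteins, but stay above d0 from d7 on, where the cytosolic list lies at or below it. The median of all genes is also above d0 on d7, d10 and d14 (0.075, 0.096 and 0.076). Of the lists drawn, complex I is lowest on d1 (-0.080).

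Cytosolic ribosomal proteins and complex I subunits were set beside the mitochondrial set as the other ribosome and a respiratory complex that depends on mitochondrial translation. The 62 cytosolic genes past the filter had medians of 0.073, 0.023, 0.11, -0.070, -9.49e-05 and -0.044 from d1 to d14, and 47 of 62 were higher on d5 than on d3 and d7, against 21.4% of all genes. This list was made by symbol and also holds Rps19bp1 and Rps23rg1, which are not ribosomal proteins. The mitochondrial set shared the height on d5 but its median was 0.11 on d7 and 0.15 on d14. The median of all genes was also above d0 on these days (0.075 and 0.076), and that of the set lay 0.032 and 0.072 above it. The 35 complex I genes, likewise taken by symbol, had medians of -0.080, 0.038, 0.21, 0.13, 0.21 and 0.18. They include Ndufa4l2, which is not a complex I subunit and was the highest of the list on d1 (0.29) and d3 (0.38). All 35 were lower on d1 than on d14, as were 55 of the 77 mitochondrial ribosomal protein genes and 4 of the 62 cytosolic ones, against 40.9% of all genes. The d1 array was the lowest reloaded day for 29 of 35 complex I genes, 38 of 77 mitochondrial and 3 of 62 cytosolic ribosomal protein genes, against 18.7% of all genes. The 3 lists are compared on the same arrays and share d0, and their differences were not tested.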

How the data were processed

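RNA of 7 pools was hybridised to 1 Mouse Gene 1.0 ST array each. The authors deposited a linear intensity for each row and array, already brought to a common scale across arrays. The submitters' processing notes name Partek. Not given in the sources used here are its genome build and the methods of background correction, summarization and normalization. The labels' protocols and the series' design text differ on the amount of RNA labelled.

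Of 35556 rows, 21789 had a single gene symbol in the platform annotation, for 19938 genes, each represented by its row of highest mean log2 intensity. A gene was kept if any of its 7 values reached the array's median over rows (12102 genes). Log2 was taken with no pseudocount (0), and genes more than 25% above or 20% below d0 were counted. Exact ties occur in the deposited values: 10 of 77 members had the same value on at least 3 arrays, as had 26.7% of all genes, so equal values on several days are not repeated measurements.

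Slopes on log2(day + 1) came from limma 3.58.1 (R 4.3.3; lmFit, then eBayes with an intensity trend), two-sided, with Benjamini-Hochberg adjustment over all 12102 genes at 0.05. The error of this fit is the scatter of single pools about a straight line. On simulated data for the 7 arrays and 12102 genes it recovered 44%, 84%, 100% and 100% of 50 genes each. These had total log2 changes of 0.5, 1, 2 and 3 in turn, and there were 10 false calls. All sizes were simulated together under a single adjustment, in which the larger changes ease the threshold for the smaller. With 0 of the 12102 real genes passing it over 7 arrays, the 44% can overstate recovery in these data. Python 3.11.15 with pandas 2.3.3, numpy 2.4.6 and matplotlib 3.10.9 did the rest.

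The members, the lists, the motifs and the tests were chosen with earlier results of these data known. Named members are, per subunit, the 4 highest and 4 lowest mean ratios to d0, the 4 highest and 4 lowest slopes from d1 to d14, and a fixed set of 22; exceptions are marked. The alternatives were d14 or the mean of the other arrays as reference, quantile normalization, equal medians, no filter or percentile 75, the mean of a gene's rows, a pseudocount of 16, means in place of medians, subunits by structure, thresholds of 1.5-fold and 2-fold, the day on a linear scale or as a rank, and each day left out.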

Additional observations from a re-analysis of the deposited data

How the results depend on the processing

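With 1 array per day, the ratios rest on single pools, and neither animal nor array error can be given. Detection above background is not known per row. No paired analysis was possible because no group has more than 1 sample. Dropping the filter, a filter at percentile 75, the mean of a gene's rows, means in place of medians and subunits by structure left every median and every subunit difference within the spread over the 6 later days (SD 0.058 for medians and 0.037 for differences) and the counts more than 25% above or 20% below d0 within 1.5 times. A pseudocount of 16 differed only in the count lower on d1, which was 0. Over all settings, 274 values stayed within these limits, 62 moved and 10 changed sign by at least the SD, and the cause was not tested. The SD of 0.037 exceeds the size of the subunit differences on d1, d3, d7 and d14 (-0.025, 0.035, 0.022 and 0.014). Such a difference, or the d1 median of 0.021, could change sign and still count as stayed.

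Against d14 the median was -0.104, -0.0505, 0.0217, -0.0363 and 0.0138 on d1, d3, d5, d7 and d10, so it changed sign on d1, d3 and d7. More than 25% above d14 were 0, 1, 4, 1 and 1 genes and more than 20% below it 5, 3, 1, 2 and 1 (of all genes, 415, 204, 180, 151 and 191), and the large minus small difference was -0.0259 on d3, 0.0285 on d5 and -0.0205 on d10, changing sign on d3 and d10. Against the mean of the 6 other arrays the median was -0.0697, -0.00881, 0.0778, -0.00408, 0.0734 and 0.0415 from d1 to d14, with 0, 0, 4, 0, 1 and 2 genes higher, against 6.2%, 1.02%, 0.636%, 2.47%, 2.33% and 0.314% of all genes, and 3 lower on d1 and 2 on d3, against 2.11% and 0.512%. The subunit difference then was -0.0893 on d1 and 0.00675 on d10.

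Quantile normalization gave a d1 median of -0.0404, a d1 subunit difference of -0.0642 and 11 genes higher on d10, against 10% of all genes. With each array set to an equal median the medians were -0.124, 0.0136, 0.117, 0.0382, 0.0088 and 0.0540, with 6 genes lower on d1, 4 lower on d3, 4 higher on d10 and 5 higher on d14, against 7.44%, 4.64%, 4.41% and 2.97% of all genes. At 1.5-fold, 0, 1, 3, 1, 2 and 1 genes were higher from d1 to d14 and 0 lower on d1 and d3; at 2-fold, 1 was higher on d5 and 0 on the other days, and 0 were lower. Rising limma slopes over 7 arrays at an unadjusted p of 0.05 numbered 6 with equal medians, 9 with the day on a linear scale and 12 with its rank. Of all genes there were 513, 614 and 835. Leaving out each day in turn gave 12 (without d0) to 21 (without d5), against 833 and 932 of all genes. Over the 6 arrays from d1 to d14 it gave 3 (without d1) to 20 (without d5) rising, against 706 and 851 of all genes. Falling were 0 to 3, with 3 without d1 and 2 without d3, against 266 and 838. At an adjusted p of 0.05 the limma counts of members were 0 under all these settings.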
